A study of Mus musculus with 6 samples.

Results

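Genes of the retinal pigment epithelium and of melanin synthesis were examined in whole retina of C57BL/6 mice. The 8 genes were chosen by name in the deposited count table, which lists 31169 genes. They were the melanin genes *Tyr*, *Tyrp1*, *Dct*, *Pmel* and *Mlana*, and the pigment epithelium genes *Best1*, *Ttr* and *Rgr*. All 8 were found once in the table, and all 8 were among the 17707 genes that passed the filter on low counts and were tested.

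Poly(A) RNA was sequenced from 3 retina samples of the saline group and 3 of the microbead group, with 1 library for each sample. Per the labels and the study's methods, male wild-type mice had been injected in the anterior chamber at 1 month of age with saline or with 15 μm polystyrene beads. The beads obstruct outflow of aqueous humor and raise intraocular pressure (IOP), and retinas were taken 4 weeks later, at 2 months of age. The labels do not say whether the 3 samples of a group came from separate mice or held 1 retina each, so p-values measure the spread between these samples, which may be technical. Where retinas are counted or compared below, the word stands for these samples.

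The retinal pigment epithelium is a sheet of pigmented cells behind the photoreceptors. It takes up shed outer segments, recycles retinoids for the visual pigments, and carries melanin, which absorbs stray light. Melanin is made in melanosomes from tyrosine. Tyrosinase, encoded by *Tyr*, performs the first step, *Dct* and *Tyrp1* encode related enzymes that act after it, and *Pmel* encodes the protein of the fibrils on which melanin is laid down. *Mlana* encodes a small melanosome protein. Iris, ciliary body and choroidal melanocytes also carry melanin, so these 5 genes are not restricted to the pigment epithelium. *Best1* encodes the chloride channel bestrophin of the basal membrane of the pigment epithelium. *Ttr* encodes transthyretin, a carrier of thyroid hormone and of the retinol-binding protein. *Rgr* encodes an opsin that isomerizes retinal and is made in the pigment epithelium and in Müller glia. When neural retina is peeled from the eye, an amount of pigment epithelium can stay attached, and in bulk RNA fewer cells of a type and less RNA per cell cannot be told apart.

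The libraries held between 13574949 and 46481382 counts, with every saline library deeper than every microbead library. Levels are given as counts per 1000000 (CPM) of the library size after TMM scaling. A single count was worth 0.0207 to 0.0285 CPM in the saline libraries and 0.0515 to 0.0722 CPM in the microbead libraries. Counting intervals below are exact 95% Poisson intervals and cover counting error only. The saline and microbead libraries carry different series of library names, so that effects of preparation or sequencing cannot be told apart from those of the injection. The share of counts on the mitochondrial genome was 3.19 to 3.57% in saline and 8.90 to 10.6% in microbead libraries. Saline libraries stood apart from each other: saline replicate 1 had the lowest level of the 6 libraries for 10 of 10 ganglion cell genes, and saline replicate 3 had 540 CPM of lens genes against 37.0 to 81.2 CPM in the other 5 libraries. Results that rest on either library are given with and without it.

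The upstream sequences of *Tyr* and *Dct* are shown first because these enzymes of melanin synthesis share a short motif that MITF, the transcription factor of pigment cells, is known to bind. Those of *Best1* and *Rgr* are shown beside them because they lack that motif and hold another, TAATCC, the form bound by OTX2 and related factors. Sequences are from the RefSeq promoter table of GRCm38.p6, in which 5 of the 8 genes were matched, and run 5′ to 3′ over the 250 bases before the gene's start. Capitals mark CATGTG (or its reverse complement CACATG) in the melanin genes and TAATCC in the others.
Tyr (chr7:87493513-87493762, reverse strand): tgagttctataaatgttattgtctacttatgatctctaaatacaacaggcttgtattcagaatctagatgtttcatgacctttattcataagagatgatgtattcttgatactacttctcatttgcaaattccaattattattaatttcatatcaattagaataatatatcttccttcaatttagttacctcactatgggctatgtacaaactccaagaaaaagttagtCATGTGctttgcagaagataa
Dct (chr14:118052247-118052496, reverse strand): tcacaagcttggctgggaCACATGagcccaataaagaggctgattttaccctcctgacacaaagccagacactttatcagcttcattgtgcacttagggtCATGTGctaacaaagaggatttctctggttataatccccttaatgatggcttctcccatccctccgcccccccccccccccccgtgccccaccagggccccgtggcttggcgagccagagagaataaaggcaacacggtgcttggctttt
Best1 (chr19:10001634-10001883, reverse strand): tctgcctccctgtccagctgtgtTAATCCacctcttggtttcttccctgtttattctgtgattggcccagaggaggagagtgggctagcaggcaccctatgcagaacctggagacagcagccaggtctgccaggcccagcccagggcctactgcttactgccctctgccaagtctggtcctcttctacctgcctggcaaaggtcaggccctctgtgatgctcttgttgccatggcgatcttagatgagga
Rgr (chr14:37049015-37049264, reverse strand): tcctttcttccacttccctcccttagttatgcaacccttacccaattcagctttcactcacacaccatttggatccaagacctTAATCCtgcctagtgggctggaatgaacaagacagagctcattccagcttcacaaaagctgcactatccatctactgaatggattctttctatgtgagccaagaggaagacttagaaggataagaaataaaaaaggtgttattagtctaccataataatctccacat
CATGTG, searched on both strands, occurred in 12.3% of the 32851 upstream sequences of this length in the table. It was found 21 bases before the start of *Tyr*, at 232 and 150 bases before that of *Dct*, and 46 bases before that of *Tyrp1*, inside the longer *Tyrp1* transcript of GENCODE. TAATCC occurred in 6.25% of all upstream sequences, a share that is not compared here with that of CATGTG. It was found, in the orientation printed, 227 bases before *Best1*, 167 before *Rgr* and 119 before *Dct*. The broader E-box CANNTG, which includes CATGTG, occurred in 66.2%. A match is a description of the letters in this window only.

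In GENCODE vM21 (GRCm38), *Tyr* lies on chromosome 7 from 87424771 to 87493512, *Tyrp1* on chromosome 4 from 80834123 to 80851719, *Dct* on chromosome 14 from 118012790 to 118052244 and *Pmel* on chromosome 10 from 128704195 to 128720238. *Mlana* lies on chromosome 19 from 29697824 to 29708634, *Best1* on chromosome 19 from 9985174 to 10001633, *Ttr* on chromosome 18 from 20665280 to 20674321 and *Rgr* on chromosome 14 from 37034909 to 37048964. All 8 are annotated as protein coding. Their identifiers in the table are ENSMUSG00000004651.6 (*Tyr*), ENSMUSG00000005994.14 (*Tyrp1*), ENSMUSG00000022129.3 (*Dct*), ENSMUSG00000025359.9 (*Pmel*), ENSMUSG00000024806.3 (*Mlana*), ENSMUSG00000037418.5 (*Best1*), ENSMUSG00000061808.3 (*Ttr*) and ENSMUSG00000021804.5 (*Rgr*). *Pmel* shares 139 exonic bases with *Cdk2* and *Dgka* on the opposite strand, and no source used here gives whether strand was used in counting, so counts from these bases are uncertain. Of the 100-base stretches of the transcripts, 0.483% of those of *Dct* and 0% of those of the other 7 genes occur in transcripts of another locus.

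To compare the 8 genes with each other, levels were divided by exon length and are given as CPM per 1000 exonic bases, as means over the 6 libraries. *Ttr* was highest at 47.9, followed by *Rgr* at 7.23, *Dct* at 1.02, *Tyrp1* at 0.570, *Pmel* at 0.505, *Mlana* at 0.292, *Best1* at 0.250 and *Tyr* at 0.112. On the same scale the glial and epithelial retinoid carrier gene *Rlbp1* was at 186. *Ttr* was above *Rgr*, and *Rgr* above *Dct*, in each of the 6 libraries. *Dct* was also above *Tyrp1* in each library. From *Tyrp1* down to *Tyr*, the ranges of neighbours over the 6 libraries overlapped, and *Pmel* was above *Tyrp1* in saline replicate 1 and microbead replicate 3.

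*Tyr* was at 0.212, 0.581 and 1.88 CPM in saline replicates 1, 2 and 3 and at 0.154, 1.30 and 0.650 CPM in microbead replicates 1, 2 and 3. These values rest on 8, 28 and 66 counts in saline and on 3, 18 and 10 counts in microbead retina. The lowest saline value, with a counting interval of 0.0917 to 0.419 CPM, and the highest, with 1.46 to 2.40 CPM, do not share an interval, while microbead replicate 1 was the lowest library of all, with an interval of 0.0318 to 0.451 CPM.

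*Tyrp1* was at 0.292, 0.954 and 2.31 CPM in saline and at 2.32, 2.82 and 0.974 CPM in microbead retina. Its saline replicate 3 lay among the microbead values, and the groups overlapped.

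*Dct*, the most abundant of the melanin genes, was at 1.65, 2.30 and 9.33 CPM in saline and at 9.42, 7.44 and 5.98 CPM in microbead retina. Here 2 saline samples lay below all microbead samples and saline replicate 3 lay within them.

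*Pmel* followed the same pattern, at 0.425, 0.581 and 1.37 CPM in saline and 1.65, 1.88 and 1.04 CPM in microbead retina. *Mlana*, the least abundant in CPM, had 0, 3 and 14 counts in saline and 3, 9 and 9 counts in microbead retina. The count of 0 in saline replicate 1 has an exact interval that reaches 0.0980 CPM (a limit of 3 counts would be 0.0797 CPM), and the highest saline level of *Mlana* was 0.399 CPM.

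Among the pigment epithelium genes, *Ttr* was at 5.45, 26.6 and 116 CPM in saline and at 67.4, 64.6 and 60.9 CPM in microbead retina. The saline values of *Ttr* thus spanned 21.3-fold and enclosed the microbead values, which spanned 1.11-fold.

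*Rgr* was at 4.20, 20.7 and 83.3 CPM in saline and at 34.7, 24.05 and 40.9 CPM in microbead retina. Its saline range was 19.8-fold and its microbead range 1.70-fold. *Best1* stayed within a narrower range, at 0.345, 0.705 and 0.770 CPM in saline and 1.08, 0.505 and 0.455 CPM in microbead retina.

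**Figure D1:**
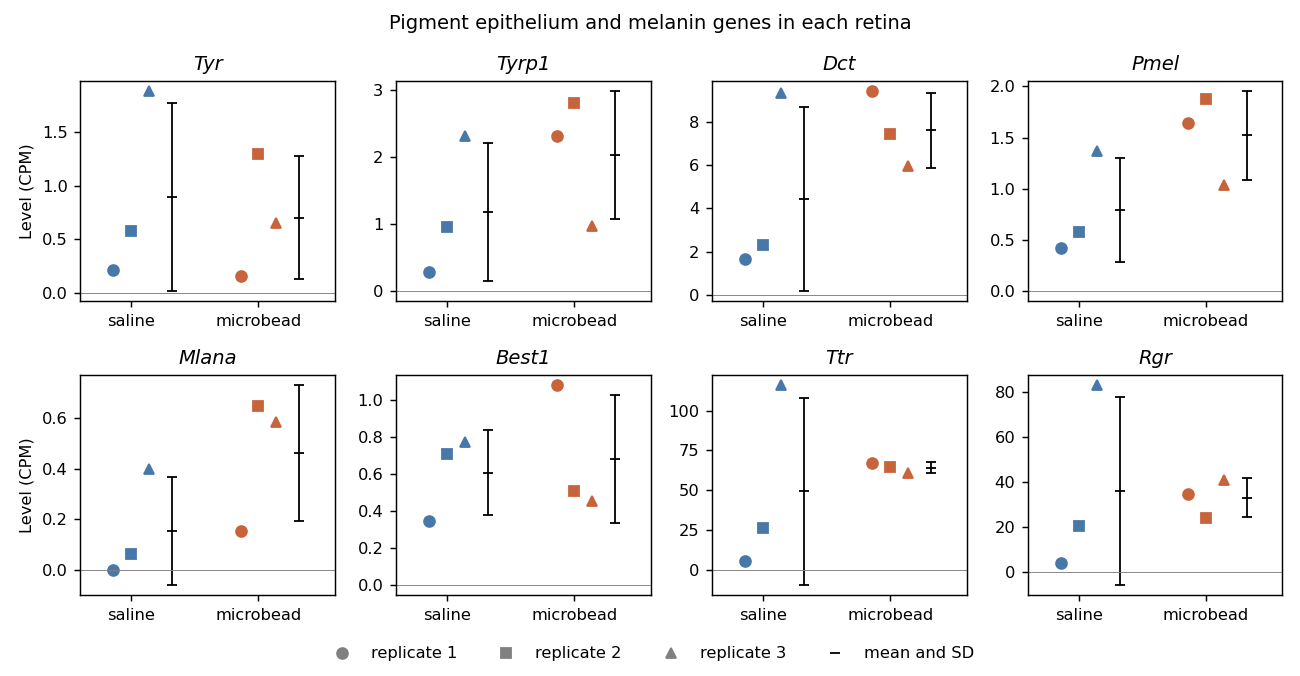
Level of each of the 8 genes (y axis, CPM, 1 panel per gene with its own linear scale) in 3 saline (blue) and 3 microbead (orange) libraries, with marker shape giving the replicate and black bars the mean and SD (n = 3). *Ttr* ran from 5.45 to 116 CPM over the saline retinas and from 60.9 to 67.4 CPM over the microbead retinas.

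Saline replicate 1 held the lowest and saline replicate 3 the highest saline level for 8 of the 8 genes. This order was seen in 25.1% of all 17707 tested genes, and it was noticed after the values were seen. For 7 of the 8, *Tyr* being the exception, saline replicate 1 was the lowest of all 6 libraries, against 12.2% of all tested genes.

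The question the study's design puts to these genes is whether they differed between microbead and saline retina. None of the 8 did by edgeR's quasi-likelihood test with Benjamini-Hochberg adjustment over all tested genes, where 12.8% of genes had an adjusted p under 0.05, 6.46% higher and 6.31% lower. Also 0 of 8 had an unadjusted p under 0.05 in edgeR's test. The share of all tested genes under that rule is not given here or below. It is at least the 12.8% that passed the adjusted threshold, so these counts are not read as results about a list. DESeq2 called 0 of 8, against 20.2% of all tested genes. That share is also the background for the DESeq2 counts of the other lists below. The CPM of the groups overlapped for all 8, while they did not overlap for 37.8% of tested genes.

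Of the 8 log2 fold changes (microbead over saline), 6 were above 0, and their median was 0.58, beside -0.03 over all tested genes. The smallest adjusted p from edgeR was that of *Pmel*, whose mean was 0.792 ± 0.506 CPM in saline and 1.52 ± 0.433 CPM in microbead retina (SD, n = 3 each). Its log2 fold change was 0.94 (standard error 0.56, 95% interval -0.31 to 2.20, adjusted p = 0.282 from edgeR). *Dct* averaged 4.43 ± 4.26 and 7.61 ± 1.73 CPM (SD, n = 3 each), with a log2 fold change of 0.79 (standard error 0.58, interval -0.52 to 2.09, adjusted p = 0.387 from edgeR). *Ttr* averaged 49.4 ± 58.7 and 64.3 ± 3.22 CPM (SD, n = 3 each), with a log2 fold change of 0.38 (standard error 0.77, interval -1.34 to 2.10, adjusted p = 0.772 from edgeR).

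For *Tyrp1* the fitted value was 0.78 (interval -0.79 to 2.35), for *Mlana* 1.58 (interval -0.88 to 4.03) and for *Best1* 0.18 (interval -1.12 to 1.48). For *Rgr* it was -0.12 (interval -1.83 to 1.59) and for *Tyr* -0.37 (interval -2.36 to 1.62). The adjusted p-values of these 5 genes from edgeR ran from 0.355 to 0.936. The intervals include no difference as well as differences of more than 2-fold in at least 1 direction for each of the 8 genes, so that the groups were not shown to be alike. Exact two-sided permutation tests of single genes gave p-values from 0.2 to 1.0, where 3 samples against 3 allow no less than 0.1.

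These calls turned on 1 library. Saline replicate 3 was the highest and saline replicate 1 the lowest saline library for all 8 genes. The direction of the shift on leaving out either was therefore fixed in advance, and the values below give only its size. Without saline replicate 3, all 8 fitted values were above 0, with a median of 1.63, and 2 of 8 passed edgeR's test against 8.42% of the genes tested in that fit. They were *Dct*, higher by 1.94 on the log2 scale (standard error 0.36, adjusted p = 0.0165 from edgeR), and *Ttr*, higher by 2.00 (standard error 0.51, adjusted p = 0.0397 from edgeR). The groups then did not overlap for 6 of the 8 (*Tyrp1*, *Dct*, *Pmel*, *Mlana*, *Ttr* and *Rgr*, all higher), against 45.3% of all tested genes. Without saline replicate 1, by contrast, 4 of the 8 values were above 0, the median was 0.11, 0 of 8 passed the test against 15.1% of genes, and 0 of 8 were without overlap against 50.9%. Leaving out saline replicate 3 also leaves out the library with 540 CPM of lens genes. The part of lens genes in this result was not tested.

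**Figure D2:**
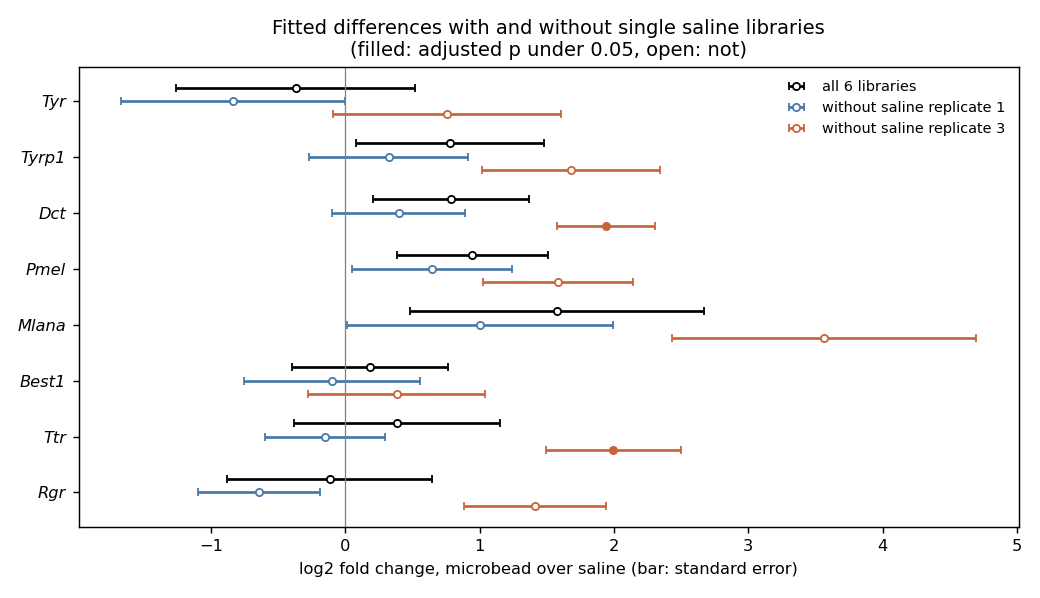
Log2 fold change of each gene, microbead over saline (x axis, bar: standard error), with all 6 libraries (black), without saline replicate 1 (blue) and without saline replicate 3 (orange). Filled points have an adjusted p under 0.05, which holds only for *Dct* and *Ttr* without saline replicate 3.

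The spread of these genes within the saline group was wide beside that of other genes. On the scale of log2 CPM (prior count 2), the range over the 3 saline libraries had a median of 2.72 over the 8 genes and 0.51 over all tested genes, whereas the range over the 3 microbead libraries had medians of 0.97 and 0.57. The saline range was the wider for 7 of the 8, *Best1* being the exception, and for 44.8% of all tested genes. *Ttr* had a saline range of 4.40 and *Rgr* one of 4.29, which 0.203% and 0.220% of tested genes reached. In the microbead group, 95.4% of tested genes had a range at least as wide as that of *Ttr*.

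Counting error was a small part of this spread for the abundant genes. Scaled to library size, the chi-square per degree of freedom against equal levels, which counting error alone would hold near 1, was 2744 for *Ttr* and 1886 for *Rgr* over the saline libraries. Over the microbead libraries it was 2.75 for *Ttr* and 31.2 for *Rgr*. For *Best1*, whose counts were low throughout, it was 3.25 in saline and 2.95 in microbead retina.

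**Figure D3:**
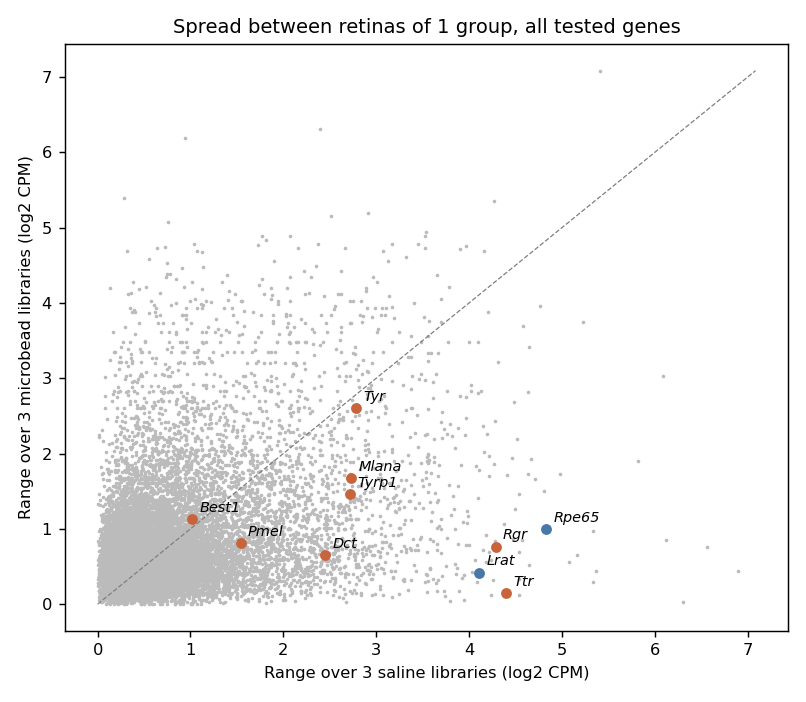
Range of log2 CPM (prior count 2) over the 3 saline libraries (x axis) and over the 3 microbead libraries (y axis) for each tested gene (grey), with the 8 genes in orange, *Rpe65* and *Lrat* in blue, and a dashed line of equal ranges. *Ttr* had a range of 4.40 in saline and 0.14 in microbead retina.

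Ratios to *Ttr* within each library were compared next. *Rgr* stood at 0.771, 0.776 and 0.717 of the CPM of *Ttr* in the saline libraries, although the genes themselves spanned 19.8-fold and 21.3-fold over these retinas. It was lower in each microbead library, at 0.515, 0.372 and 0.671. *Lrat*, the enzyme that esterifies retinol in the pigment epithelium, stood at 0.122, 0.103 and 0.108 of *Ttr* in saline and 0.0840, 0.0727 and 0.103 in microbead retina. *Rpe65*, the isomerase of the visual cycle and a defining gene of the pigment epithelium, stood at 0.171, 0.170 and 0.245 in saline and 0.214, 0.117 and 0.118 in microbead retina. The SD of log2 CPM over the 6 libraries was 1.44 for *Rgr*, 1.64 for *Rpe65* and 1.40 for *Lrat*, and that of their log2 ratio to *Ttr* was 0.42, 0.43 and 0.30.

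The melanin genes kept this ratio less closely. *Dct* stood at 0.302 of *Ttr* in saline replicate 1 and at 0.0864 and 0.0804 in the other saline libraries, with 0.140, 0.115 and 0.0981 in microbead retina. *Pmel* stood at 0.0780 in saline replicate 1, and at 0.0118 to 0.0291 in the other 5 libraries. The ratio of *Best1* to *Ttr* differed 9.56-fold between libraries and that of *Tyr* 17.0-fold, both with few counts. For *Dct* and *Pmel*, ratios to *Tyrp1* spread less than those to *Ttr*. The ratio of *Dct* to *Tyrp1* lay between 2.41 and 6.13, with an SD of 0.51 on the log2 scale against 1.06 for *Dct* itself. That of *Pmel* to *Tyrp1* lay between 0.593 and 1.45, with an SD of 0.47 against 0.79 for *Pmel* itself.

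**Figure D4:**
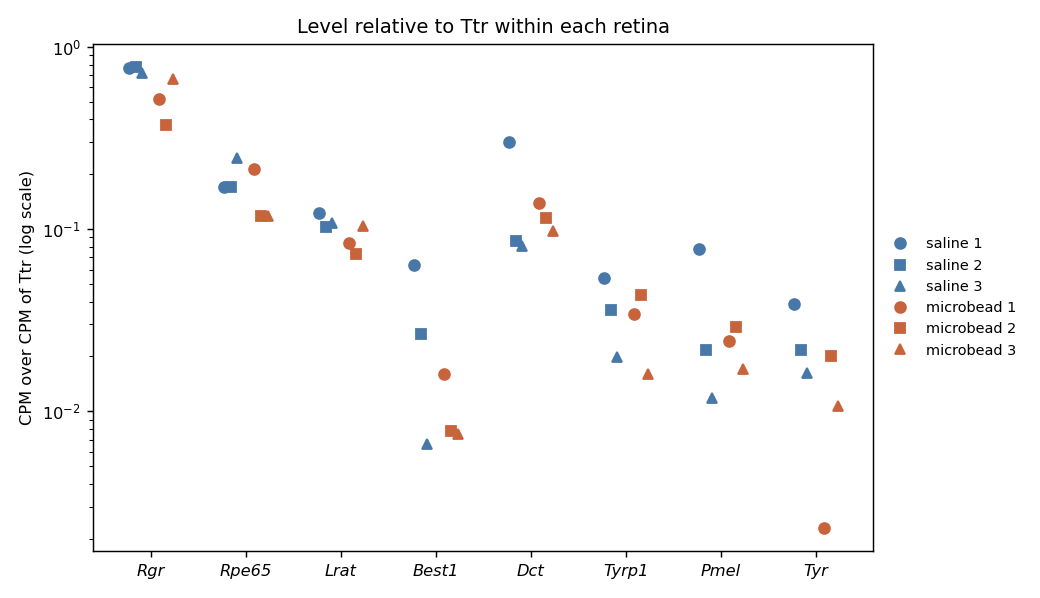
CPM of each gene divided by the CPM of *Ttr* in the same library (y axis, log scale), for saline (blue) and microbead (orange) libraries, with marker shape giving the replicate. *Rgr*, *Rpe65* and *Lrat* lie in narrow bands, while *Dct*, *Tyrp1*, *Pmel*, *Tyr* and *Best1* are highest in saline replicate 1, where *Ttr* itself was lowest.

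Of 19 other pigment epithelium genes, all were tested and 0 had an adjusted p under 0.05 from edgeR, with 3 at an unadjusted p under 0.05 (*Rdh5*, *Rdh10* and *Serpinf1*) and 2 called by DESeq2 (*Rdh5* and *Serpinf1*). Their median log2 fold change was -0.16, and 9 were above 0. *Rpe65* was at 0.930, 4.52 and 28.4 CPM in saline and 14.4, 7.58 and 7.21 CPM in microbead retina, with a log2 fold change of -0.21 (adjusted p = 0.899 from edgeR). *Lrat* was at 0.664, 2.74 and 12.6 CPM in saline and 5.66, 4.69 and 6.30 CPM in microbead retina, with 0.06 (adjusted p = 0.967 from edgeR). Both enclosed the microbead values within the saline range, as *Ttr* and *Rgr* did. Saline replicate 1 was the lowest and saline replicate 3 the highest saline library for 15 of the 19, against 25.1% of all tested genes.

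Without saline replicate 3, 2 of the 19 passed edgeR's test, against 8.42% of the genes tested in that fit, and the median was 0.71. They were *Rdh5*, a retinol dehydrogenase, and the amino acid transporter gene *Slc6a20a*, both higher in microbead retina. For both, the library left out was the highest saline library. *Rdh5* was at 2.55, 4.87 and 14.1 CPM in saline and 18.9, 13.9 and 19.2 CPM in microbead retina, with a log2 fold change of 1.28 over all 6 libraries (adjusted p = 0.125 from edgeR). *Serpinf1*, which encodes the secreted factor PEDF, was at 3.32, 3.69 and 3.91 CPM in saline and 6.54, 7.22 and 6.30 CPM in microbead retina, with 0.88 (adjusted p = 0.0593 from edgeR). Its groups did not overlap, and its saline values were close together, unlike those of the 8 genes. *Rlbp1*, the retinaldehyde carrier made also in Müller glia, did not share the wide spread: it was at 416, 542 and 786 CPM in saline and 584, 488 and 484 CPM in microbead retina, with a log2 fold change of -0.16 (adjusted p = 0.679 from edgeR).

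Other pigment cell genes were mixed. Of 11, 10 were tested, 0 passed edgeR's test (2 at an unadjusted p under 0.05, 1 called by DESeq2), and the median was -0.10. *Mitf*, the transcription factor, was at 5.92, 8.54 and 7.76 CPM in saline and 7.51, 7.87 and 7.47 CPM in microbead retina, with a log2 fold change of 0.04 (adjusted p = 0.934 from edgeR). *Slc45a2*, a melanosome transporter, was at 0.0722 to 0.643 CPM over the 6 libraries, with -1.12 (adjusted p = 0.355 from edgeR). Neither followed the order of the 8 genes in saline retina, which 3 of the 10 tested followed (*Oca2*, *Slc7a11* and *Trpm1*), against 25.1% of all tested genes. *Gpr143*, which was not tested, also followed it. These were named after their values were seen. *Trpm1*, at 190 to 323 CPM, is also on the list of bipolar genes below. *Oca2*, which encodes a melanosome membrane protein, was at 0.186, 0.353 and 1.37 CPM in saline and 0.566, 0.867 and 0.520 CPM in microbead retina. Its groups overlapped, and its mean was under the 1 CPM needed to be ranked for likeness to the 8 genes, from whose mean it differed by 0.28. Of 22 genes that assemble and move melanosomes and related lysosomal organelles in many cell types, 21 were tested, 0 passed edgeR's test (6 at an unadjusted p under 0.05, 2 called by DESeq2), and the median was -0.19. Of 5 melanocyte genes, 4 were tested and 0 passed (0 at an unadjusted p under 0.05, 0 by DESeq2), with a median of -0.46, and *Pax3* was at 0 in 5 libraries. Of the 4 tested, 3 (*Sox10*, *Kit* and *Ednrb*) followed the saline order of the 8 genes, against 25.1% of all tested genes. In 1 of the 4, saline replicate 1 was the lowest of all 6 libraries, against 12.2%. *Sox10*, also under 1 CPM, had 3, 9 and 27 counts in saline and 9, 10 and 10 in microbead retina. It differed from the mean of the 8 genes by 0.23.

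Summed over the 5 melanin genes, CPM were 2.58, 4.48 and 15.3 in saline and 13.7, 14.1 and 9.22 in microbead retina. Summed over *Best1*, *Ttr* and *Rgr* they were 9.99, 48.0 and 200.1 in saline and 103, 89.1 and 102 in microbead retina. In all, the 8 genes held 0.00131% to 0.0201% of the counts of a library. For both sums the saline values enclosed all microbead values.

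Markers of other cells were summed in the same way. The 10 ganglion cell genes summed to 379, 1093 and 1400 CPM in saline and 939 to 1288 CPM in microbead retina, so that saline replicate 1 was low for these genes as well, and for 10 of 10 it was lowest and saline replicate 3 highest among the saline libraries. The 10 rod genes summed to 67603 to 89581 CPM in saline and 58536 to 73188 CPM in microbead retina, and the 11 Müller glia genes to 5643 to 9447 and 4713 to 5747 CPM. In edgeR's test 1 rod gene (*Nrl*) and 4 Müller glia genes (*Sox9*, *Crym*, *Dkk3* and *Vim*) were lower in microbead retina, and 0 of 10 ganglion cell genes passed (2 at an unadjusted p under 0.05, 0 by DESeq2). Of 12 lens genes in the table, *Cryaa* was at 15.5, 0.270 and 210.5 CPM in saline and at 0, 0.144 and 0 CPM in microbead retina. Of the 5 lens genes tested, *Crybb1* fell by 4.37 on the log2 scale (adjusted p = 0.0249 from edgeR). Saline replicate 1, the lowest of the saline libraries for the pigment genes, had the second highest sum of lens genes. The sums of 6 genes of ciliary and iris epithelium were 205 to 227 CPM in saline and 123.3 to 145 CPM in microbead retina, most of it *Aqp1*, a water channel gene, which fell by 1.17 on the log2 scale (standard error 0.16, adjusted p = 0.00894 from edgeR). Unlike *Aqp1*, 4 of the 5 tested (*Zic1*, *Zic2*, *Msx1* and *Col9a1*) followed the saline order of the 8 genes, against 25.1% of all tested genes. In these 4, saline replicate 1 was also the lowest of the 6 libraries, against 12.2% of all tested genes. The 7 genes of choroid and sclera summed to 21.3 to 27.5 CPM in saline and 22.9 to 25.1 CPM in microbead retina, with *Dcn* and *Lum* at 0 in at least 1 library. Of 7 cone genes 1 passed edgeR's test, *Arr3*, which rose by 1.44 on the log2 scale, of 7 bipolar genes 0 passed (1 at an unadjusted p under 0.05, 1 by DESeq2), and of 8 endothelial genes 4 were lower (*Tie1*, *Esam*, *Cldn5* and *Flt1*). All of the calls in these lists were lost without microbead replicate 3, when 46 genes were called in all. The part of any of these cells in the levels of the 8 genes was not tested.

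**Figure D5:**
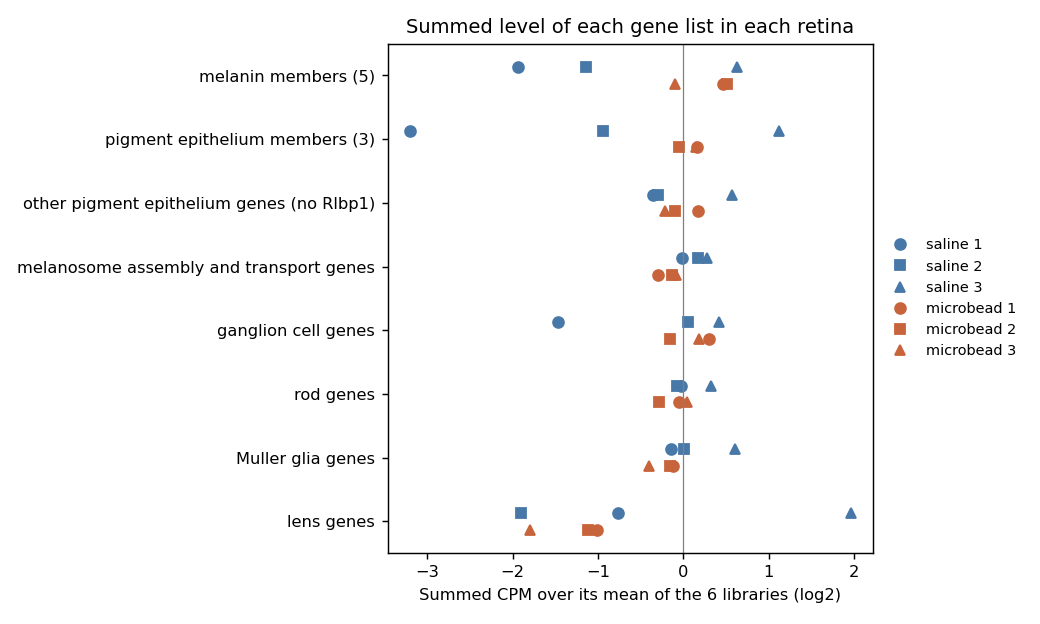
Summed CPM of 8 gene lists (y axis), each over its mean of the 6 libraries (x axis, log2), in saline (blue) and microbead (orange) libraries, with marker shape giving the replicate. Saline replicate 1 lies lowest for the melanin, pigment epithelium and ganglion cell lists, and saline replicate 3 lies highest for the 8 lists plotted, which leave out the cone and other pigment cell lists, where it was not the highest.

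The genes whose pattern over the 6 libraries was most like the mean of the 8 were sought among 15083 other tested genes with a mean of at least 1 CPM. Likeness was the root mean square difference between centred log2 CPM values, with a median of 0.99 over all genes ranked. The 8 nearest were *Slc13a3*, *Fam107a*, *Ermn*, *Tfap2d*, *Cldn1*, *Crhbp*, *Stra6* and *Tmem27*, at 0.28 to 0.35. Of these, *Ermn* and *Stra6*, the receptor that takes up retinol from its carrier, were on the list of other pigment epithelium genes, of which 3 stood among the first 50, *Lrat* being the third. *Rbpms* and *Thy1*, markers of ganglion cells, stood at ranks 23 and 36. *Stra6* was at 3.45, 12.5 and 20.5 CPM in saline and 12.97, 12.9 and 11.4 CPM in microbead retina, with a log2 fold change of 0.03 (adjusted p = 0.978 from edgeR). None of the 8 nearest genes passed edgeR's test, against 12.8% of all tested genes. They were picked for likeness to a mean pattern whose saline values enclosed its microbead values. A call was therefore unlikely from the start, and nothing is drawn from its absence.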

How the data were processed

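Each library was poly(A) RNA of whole retina, prepared with a stranded kit and sequenced as 100-base paired reads. Per the labels and methods, the authors aligned reads with STAR 2.5.3a to GRCm38.p5 and made the deposited counts per gene with featureCounts 1.15.2; whether strand and multiply mapped reads were counted is not given in the sources used here. Columns of the authors' DESeq2 1.14 comparison (means, fold changes and p-values) stand beside the counts and were not used.

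From the counts, genes were kept by filterByExpr (minimum count 10, minimum total 15), scaled by TMM and tested with edgeR 4.0.16 (glmQLFit and glmQLFTest, all 6 libraries, no covariate, Benjamini-Hochberg adjustment, threshold 0.05), in R 4.3.3. CPM used TMM library sizes. Log2 CPM used a prior count of 2. The procedure was tested on simulated counts. Single genes were also tested by exact permutation. Alternatives were DESeq2 1.42.0, limma 3.58.1 (voom), other scalings and filters, a replicate block, and each library left out. Samples were grouped by their treatment label. No pair of libraries was a copy: the smallest chi-square per degree of freedom between replicates was 22.0. Total counts ranged from 13574949 to 46481382 per library, so levels near 3 counts (0.0622 to 0.217 CPM) are imprecise.

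The 8 genes and the other lists were chosen with earlier results of these data known. The text names the 8 genes, *Rpe65*, *Lrat*, *Rlbp1*, *Mitf* and *Slc45a2*, the called genes of the lists, and the 8 genes most like the members; other names were chosen after values were seen. Exon lengths and positions are from GENCODE vM21.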

Additional observations from a re-analysis of the deposited data

How the results depend on the processing

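With 1 library left out at a time, log2 fold changes ran from -1.16 to 0.76 for *Tyr*, 0.32 to 1.68 for *Tyrp1*, 0.39 to 1.94 for *Dct*, 0.65 to 1.58 for *Pmel*, 1.00 to 3.56 for *Mlana*, -0.34 to 0.39 for *Best1*, -0.15 to 2.00 for *Ttr* and -0.65 to 1.41 for *Rgr*. They ran from -0.75 to 1.83 for *Rpe65*, -0.46 to 1.69 for *Lrat*, -0.36 to 0.11 for *Rlbp1*, -0.10 to 0.15 for *Mitf*, -0.37 to 0.84 for *Fam107a*, -0.16 to 0.84 for *Tfap2d*, -0.15 to 1.00 for *Cldn1*, -0.15 to 0.98 for *Crhbp*, -0.42 to 0.63 for *Stra6* and -0.33 to 1.41 for *Tmem27*. Of the 8 genes, 0 to 2 passed the test and 0 to 6 were without overlap. The log2 ratio of summed CPM ran from 0.32 to 1.81 for the melanin genes and from -0.34 to 1.76 for *Best1*, *Ttr* and *Rgr*. In each of these ranges that reached above 1, the top was the fit without saline replicate 3. Over all genes 46 (without microbead replicate 3) to 2621 (without saline replicate 1) were called.

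The sign of *Rgr* turned to 0.77 with limma-voom and 0.64 with a replicate block, and that of *Rpe65* to 0.98 and 0.80. With these fits *Ttr* was at 1.34 and 1.29 and *Dct* at 1.25 and 1.21. With no filter on low counts *Mitf* was at -0.012, *Fam107a* at -0.033 and *Stra6* at -0.031. Calls over all genes numbered 3720 with no filter, 3582 with DESeq2 and 905 with the replicate block, against 2261. With a minimum of 5 CPM, 3 of the 8 most like genes were shared (*Fam107a*, *Crhbp* and *Stra6*). The others had means under that minimum and could not be ranked, so this count was fixed by the cutoff. The cause of the changes in fold changes and calls was not tested. Of 109 alternative values of the 8 genes, 98 kept direction and side of the threshold, 9 reversed and 2 passed the threshold, with adjusted p-values from 0.0165 to 0.969. Of 358 values of the other named genes, 272 kept both, 63 lost the threshold and 23 reversed. Requiring 10 counts in every library left 5 of the 8 to test.

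Replicate numbers did not pair the samples: the deviations of same-numbered libraries correlated at -0.035, 0.136 and 0.0100, and not every library correlated best with its own number. The replicate block called 0 of the 8 genes.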
